A study of Rattus norvegicus with 22 samples.

Results

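Glycogen, gluconeogenesis and glucose phosphorylation in male rat liver are described here through 6 genes: Gckr, Ppp1r3c, Gys1, Pygl, Fbp1 and Pck2. They were chosen by symbol from the larger of 2 deposited expression tables, that of the male animals, where they fill 7 of 1365 rows and stand for 6 of 1325 gene symbols. Ppp1r3c has 2 rows with the same values and was counted once. The livers came from 22 young adult Wistar rats at postnatal day 110, and each animal gave 1 library of RNA. The mothers of 6 control males had eaten a control diet, and those of 5 MO males an obesogenic diet (MO, maternal obesity). The female animals, 6 control and 5 MO, are in a separate table of 69 rows, which holds 0 of the 6 genes. The sources used here do not give the diet of the offspring themselves, their feeding state at collection or their litters. The p-values therefore measure the spread from animal to animal only.

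The liver takes up glucose after a meal and releases it between meals. Glucose is trapped in the hepatocyte by phosphorylation, and the protein encoded by Gckr is an inhibitor of that step, more so when fructose 6-phosphate is plentiful. Glycogen synthase stores glucose as glycogen and glycogen phosphorylase releases it, and both enzymes are switched by a protein phosphatase that subunits such as the product of Ppp1r3c bring to the glycogen particle. In the opposite direction, phosphoenolpyruvate carboxykinase and fructose-1,6-bisphosphatase carry lactate and amino acids back to glucose, and the latter also glycerol.

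All 6 genes were lower in MO than in control males, in a table where that is the rule: its rows were chosen before deposit because they differed, and 1317 of 1365 (96.5%) were lower. Ppp1r3c fell most, to 35.3% of the control mean. Pygl and Gckr fell to 48.1% and 48.4%. Gys1 was at 58.3%, Fbp1 at 67.3% and Pck2 at 67.9% of the control mean. The median log2 fold change was -0.81 over the 6 genes and -0.58 over all rows. Both medians are descriptions, and no test sets the 6 genes apart from the rest of the table.

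The 250 bases before the transcription start are shown for the 3 genes whose MO and control values did not overlap, so that the sequence next to each start can be read beside the values. They are RefSeq sequences of the assembly GRCr8, which is not the build named for the deposited files (rn5), and 6 of 6 genes were matched by symbol. Capitals mark matches, on either strand, to any of 7 short motifs: TGACG from the cAMP response element, the E-box CACGTG, the forkhead motif TGTTTAC, the GC box GGGCGG, the box named CCAAT for its letters, the TATA box in its form TATAAA, and TGTTCT from the glucocorticoid receptor element. No 2 of these motifs overlap in the sequences shown.
Gckr, chr6:30795628-30795877, minus strand: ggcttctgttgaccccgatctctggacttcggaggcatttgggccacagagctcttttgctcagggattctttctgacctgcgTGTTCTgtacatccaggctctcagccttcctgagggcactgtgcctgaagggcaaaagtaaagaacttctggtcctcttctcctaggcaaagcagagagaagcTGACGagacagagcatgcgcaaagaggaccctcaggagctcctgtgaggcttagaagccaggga
Ppp1r3c, chr1:243878528-243878777, minus strand: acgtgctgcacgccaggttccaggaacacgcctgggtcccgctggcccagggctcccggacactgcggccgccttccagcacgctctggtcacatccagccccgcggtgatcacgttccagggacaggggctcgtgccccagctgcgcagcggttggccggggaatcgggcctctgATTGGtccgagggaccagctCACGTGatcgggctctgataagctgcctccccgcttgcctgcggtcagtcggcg
Pygl, chr6:94476220-94476469, minus strand: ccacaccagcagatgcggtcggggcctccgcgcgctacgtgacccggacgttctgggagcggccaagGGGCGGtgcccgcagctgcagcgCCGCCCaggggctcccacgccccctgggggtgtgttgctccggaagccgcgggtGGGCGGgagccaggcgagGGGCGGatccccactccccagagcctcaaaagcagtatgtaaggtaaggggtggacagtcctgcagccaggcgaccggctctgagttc

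The 3 windows had different motifs. Ppp1r3c held an E-box that begins 54 bases before the start, a motif that basic helix-loop-helix factors bind, found in 5.6% of 33469 rat promoter windows of the same length and in 1 of the 6 genes. It also held an inverted CCAAT box that begins 74 bases before the start. Pygl held 4 GC boxes, a motif present in 30.5% of all windows and in 4 of the 6 genes (Fbp1, Gys1, Pck2 and Pygl). Gckr held 1 cAMP response motif, as did 18.2% of all windows, and 1 glucocorticoid receptor motif, as did 17.5%. The CCAAT box was present in 4 of the 6 genes and in 34% of all windows, and the forkhead motif and the TATA box in 0 of the 6, against 3.2% and 12.9% of all windows. These are letter matches in a fixed window and were not tested for binding or use.

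Values per animal are in RPM, read numbers divided by the size of their library, and fold changes are differences of mean log2(RPM + 1), MO minus control, from a limma fit over the whole male table. As estimated from the smallest steps between values, depth was 7890000 to 11170000 reads in control and 10530000 to 11590000 reads in MO males. The lowest depth, that of control male 4, is uncertain, since 2 steps were possible and the larger was taken. The limma adjusted p passed 0.05 for 6 of the 6 genes, and for 100% of all rows. That follows from the selection of the table, in which the highest p of the authors' deposited table is 0.04964 and the smallest log2 change 0.48, so the passing of the test says nothing particular about these genes. The listed rows together took 9.69% to 15.32% of all reads in control males and 6.58% to 8.69% in MO males. Control males 2 and 4 had the 2 lowest library medians among the controls and control male 6 the highest. Rmrp, an RNA without a poly(A) tail, ranged from 36.9 to 51.2 RPM in 4 controls (males 2, 3, 4 and 6), and from 1.2 to 3.11 RPM in the other two controls and all MO males. The part of these library differences in the results for the 6 genes was not tested.

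Gckr (NM_013120, chromosome 6) encodes the regulatory protein that restrains glucose phosphorylation in the hepatocyte. Its lowest, median and highest values in control males were 199, 267 and 299 RPM. MO males 1 to 5 were at 137, 94.7, 105, 167 and 128 RPM. The groups did not overlap: the highest MO male was below the lowest control, control male 2, which itself lay apart from the other controls at 257 RPM and above. Control males averaged 261 ± 33.9 RPM (SD, n = 6) and MO males 126 ± 28.2 RPM (SD, n = 5). Gckr thus fell by 1.06 on the log2 scale, with an SE of 0.18 (adjusted p = 0.00031, limma).

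Ppp1r3c (NM_001012072, chromosome 1) encodes a subunit that targets protein phosphatase 1 to glycogen and thereby favours storage. Its lowest, median and highest values in control males were 50.7, 79.8 and 135 RPM. In MO males 1 to 5 it was at 18.3, 38.2, 48.7, 22.7 and 16.3 RPM. No MO male reached the lowest control, although MO male 3 (48.7 RPM) and control male 1 (50.7 RPM) were nearly level, and control male 5 was far above the other controls. Means were 81.7 ± 29.3 RPM in control males (SD, n = 6) and 28.8 ± 14.0 RPM in MO males (SD, n = 5). The log2 fold change, -1.53 with an SE of 0.26, had an adjusted p of 0.00034 by limma. By size of the fall it ranked 19 of 1365 rows. Ppp1r3c varied most of the 6 genes between animals of 1 group, with an SD of log2 values of 0.48 in control and 0.66 in MO males.

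Gys1 (NM_001109615, chromosome 1) encodes the glycogen synthase that is widely expressed and best known from muscle; the synthase of the hepatocyte is encoded by Gys2, which has no row in the table and was not analysed here. Gys1 was scarce, at 3.30, 5.25 and 8.40 RPM (lowest, median and highest) in control males. MO males 1 to 5 had 3.07, 3.13, 3.18, 4.34 and 1.99 RPM. These values rest on about 23 to 79 reads per library. The groups overlapped: MO male 4 lay above control males 2 (4.14 RPM) and 4 (3.30 RPM), and the other 4 MO males lay below every control. On the log2 scale Gys1 changed by -0.61 with an SE of 0.20 (adjusted p = 0.011, limma). At this level the size depends on the 1 RPM added before taking logs: it was -0.74 with 0.1 added and -0.34 with 5 added, and passed in both cases (limma adjusted p = 0.011 each).

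Pygl (NM_022268, chromosome 6) encodes the liver glycogen phosphorylase, the enzyme that cuts glucose 1-phosphate from glycogen. In control males the lowest, median and highest values were 154, 229 and 327 RPM. In MO males 1 to 5 they were 110, 110, 114, 97.2 and 126 RPM. All 5 MO males were below every control, and they differed little among themselves. The SD of log2 values was 0.13 in MO and 0.42 in control males, where males 2 (166 RPM) and 4 (154 RPM) were lowest and male 6 highest. Control males averaged 232 ± 66.7 RPM (SD, n = 6) and MO males 111 ± 10.4 RPM (SD, n = 5). This fall of Pygl, -1.0 on the log2 scale with an SE of 0.20, had an adjusted p of 0.0011 by limma.

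Of the gluconeogenic enzymes, Fbp1 (NM_012558, chromosome 17) encodes fructose-1,6-bisphosphatase, which removes a phosphate late in the pathway. Its lowest, median and highest values in control males were 326, 514 and 652 RPM. MO males 1 to 5 were at 339, 291, 348, 388 and 257 RPM. The controls were divided, with males 2 and 4 at 326 and 331 RPM, inside the MO range, and the other 4 at 483 RPM or more, above every MO male. Means were 482 ± 131 RPM in control males (SD, n = 6) and 325 ± 51.0 RPM in MO males (SD, n = 5), a change of -0.54 on the log2 scale with an SE of 0.20 (adjusted p = 0.015, limma). Against control males 2, 3, 4 and 6 alone the change was -0.47 and did not pass (limma adjusted p = 0.0596). Without control males 2 and 4, left out after their values had been seen, it was -0.79 (limma adjusted p = 0.00122). Leaving out the lowest controls enlarges a fall by construction, so that value adds nothing.

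Pck2 (NM_001108377, chromosome 15) encodes the mitochondrial form of phosphoenolpyruvate carboxykinase; its cytosolic partner Pck1 has no row and was not analysed here. Pck2 was at 10.0, 12.8 and 17.8 RPM (lowest, median and highest) in control males. MO males 1 to 5 were at 10.01, 5.22, 9.0, 12.2 and 8.46 RPM. MO male 2 was lowest, MO male 1 was nearly level with the lowest control, and MO male 4 lay inside the control range, above control males 4 and 5. Pck2 changed by -0.53 on the log2 scale, with an SE of 0.20 (adjusted p = 0.015, limma). Without MO male 2 it was -0.37 and no longer passed (limma adjusted p = 0.0685), and against control males 1 and 5 alone it was -0.38 (limma adjusted p = 0.182).

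**Figure D1:**
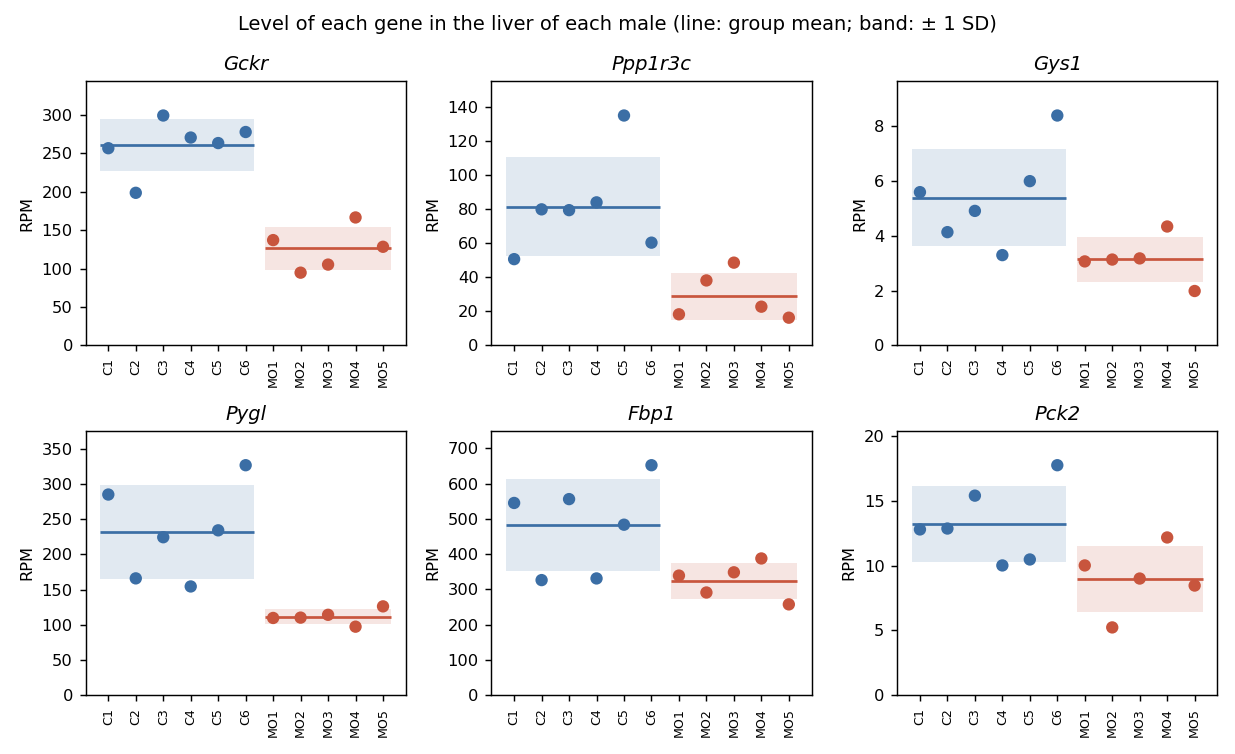
Level in RPM (vertical axis, from 0, with its own scale in each panel) of the 6 genes in 6 control (C1 to C6, blue) and 5 MO males (MO1 to MO5, red); each point is 1 animal, lines are group means and bands ± 1 SD. The groups do not overlap for Gckr, Ppp1r3c and Pygl, and they overlap for Gys1, Fbp1 and Pck2.

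In 3 of the 6 genes (Gckr, Ppp1r3c and Pygl) all 5 MO males were below all 6 controls, as they were in 29.9% of all rows. A fall of 1 or more on the log2 scale was found in the same 3 genes, and in 5.2% of all rows. Pygl lay at this cut: with 1 animal left out at a time it ranged from -1.11 to -0.9, and Gckr from -1.16 to -0.96. The 6 genes were also chosen with earlier results of these data known. Each library was then centred on its median over the table, which removes the shift shared by most rows. On that scale 0 of the 6 genes passed the limma threshold, against 5.27% of all rows and 1.82% of the 1317 rows that were lower before centring, as the 6 genes were. With an unadjusted p under 0.05 there were 3 of the 6 (Gckr, Ppp1r3c and Pygl), and 5.47% of those 1317 rows were lower with such a p. After centring Ppp1r3c was at -0.94 ± 0.33 (SE; limma adjusted p = 0.172), Gckr at -0.47 ± 0.14 (SE; limma adjusted p = 0.0764) and Pygl at -0.42 ± 0.15 (SE; limma adjusted p = 0.2). Gys1 was at -0.02 ± 0.14, Fbp1 at 0.05 ± 0.12 and Pck2 at 0.06 ± 0.13 (SE). The sign of Fbp1 and Pck2 thus flipped, but all of these values lay within 1 SE of 0. The median used for centring is itself that of selected rows, and the shift it removes between the groups is -0.58 on the log2 scale.

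Individual animals did not keep 1 place across the genes. Control male 6 was among the 2 highest controls for 5 of the 6 genes, but for Ppp1r3c it was the second lowest. Control males 2 and 4 were each among the 2 lowest controls for 4 of the 6 genes. Among MO males, male 4 was highest for Gckr, Gys1, Fbp1 and Pck2 and lowest for Pygl. MO male 5 was lowest for Fbp1, Gys1 and Ppp1r3c and highest for Pygl. Of the MO males, male 4 also had the highest library median over all listed rows (4.06 on the log2 scale). That of MO male 5 (3.73) was next to the lowest, that of MO male 2 (3.72).

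**Figure D2:**
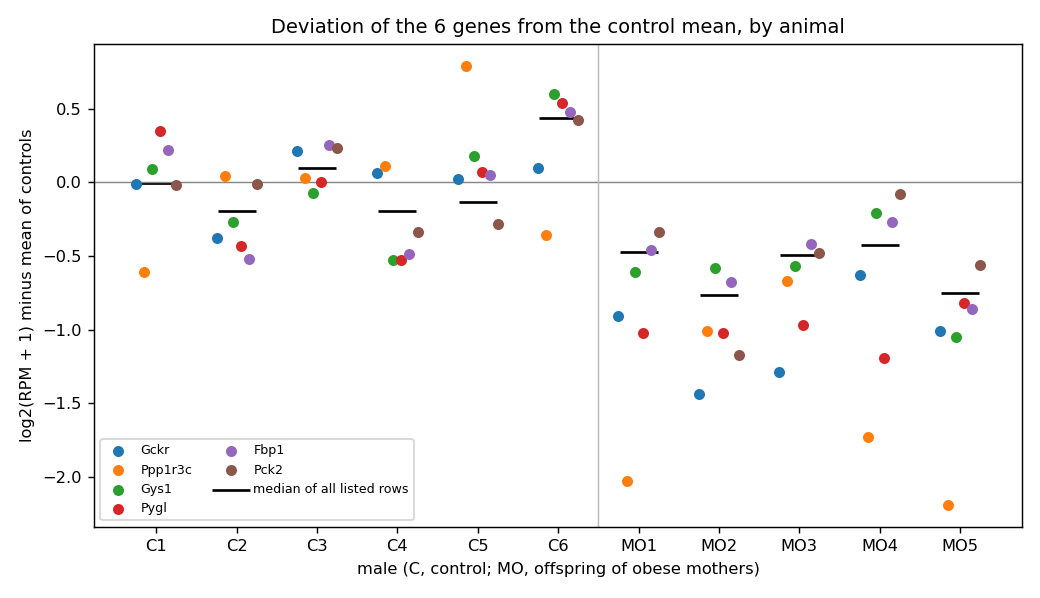
Difference of log2(RPM + 1) from the control mean (vertical axis) for the 6 genes (coloured points) in each of 11 males (horizontal axis), with the difference of the library median over all listed rows as a black bar. In MO males, Gckr, Pygl and Ppp1r3c lie below the bar in every animal, and in control male 6 Gys1, Pygl and Fbp1 lie above it.

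Levels within an animal were then compared between the genes, since a shift shared by all transcripts of a library largely cancels in the ratio of 2 genes. For Gys1 and, less so, Pck2 it does so only in part, because the 1 RPM added before taking logs shrinks changes at low levels. In control males Fbp1, Gys1 and Pygl kept nearly fixed ratios. The SD of the log2 ratio was 0.13 for Fbp1 to Pygl, 0.15 for Gys1 to Pygl and 0.21 for Fbp1 to Gys1, against 0.39 to 0.42 for the log2 level of each gene. The library medians over all rows were likewise highest in control male 6 and lowest in control males 2 and 4. In MO males the ratio of Fbp1 to Gys1 was as narrow (SD 0.13, n = 5), while those to Pygl were wider, at 0.35 and 0.43.

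Of the 15 pairs of genes, 0 differed in their change after Benjamini-Hochberg adjustment over the pairs (two-sided exact permutation test over the 462 splits of the animals), and 5 had an unadjusted exact p under 0.05. With limma on the same ratios 0 pairs passed, and 2 with the replicate number as a block. Each gene of a pair had itself been selected for a difference in these animals, and the p-values of the pairs do not allow for that. Ppp1r3c fell by 0.99 more than Fbp1 on the log2 scale (exact permutation p = 0.045, adjusted 0.13), with 5 of 5 MO males on the same side of the control mean. Gckr fell by 0.53 more than Pck2 (exact permutation p = 0.015, adjusted 0.12) and by 0.52 more than Fbp1 (exact permutation p = 0.024, adjusted 0.12), each again in 5 of 5 MO males. Pygl fell by 0.47 more than Fbp1 (exact permutation p = 0.017, adjusted 0.12) and by 0.40 more than Gys1 (exact permutation p = 0.048, adjusted 0.13), in 4 of 5 MO males each. The difference between Pygl and Gys1 was 0.27 with 0.1 RPM added in place of 1 (exact permutation p = 0.28, adjusted 0.35) and 0.64 with 5 added (exact permutation p = 0.0043, adjusted 0.022). MO male 5 was the exception for both partners: without it, the pairs of Pygl with Fbp1 and with Gys1 differed by 0.59 and 0.56 and passed (exact permutation adjusted p = 0.036 each). Leaving out the animal on the other side widens a difference by construction, and leaving out any other single animal gave 0 pairs. The differences in change of Gckr minus Pygl (-0.05) and Fbp1 minus Pck2 (-0.01) were the smallest, with SDs of the log2 ratio of 0.30 to 0.40 within the groups.

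**Figure D3:**
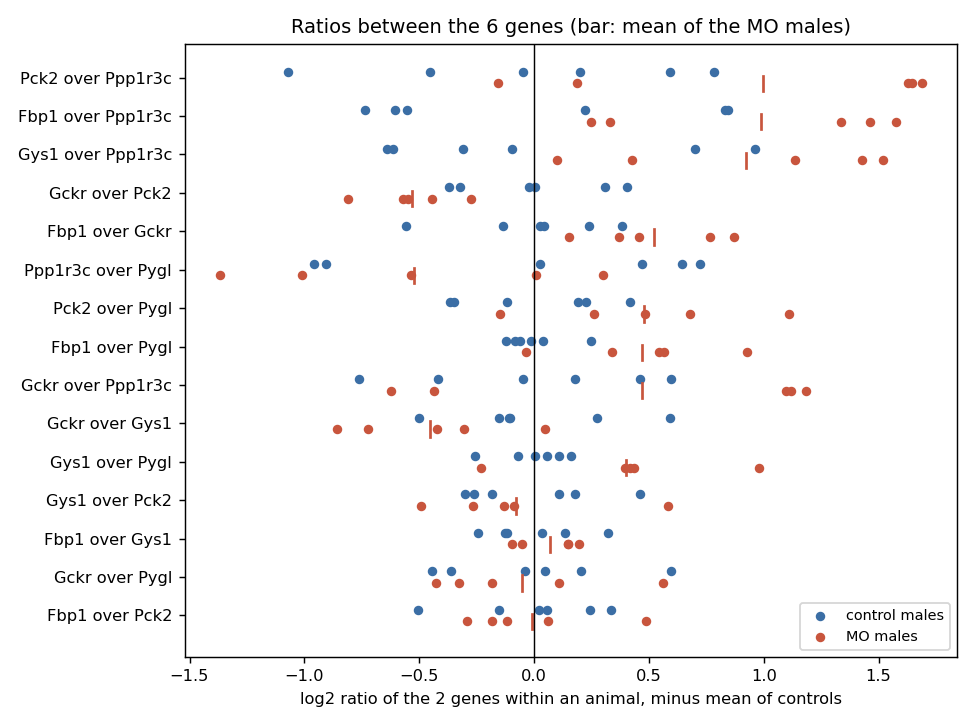
Log2 ratio of 2 genes within an animal, minus the mean of the control males (horizontal axis), for the 15 pairs (vertical axis, ordered by size of the difference); points are animals, control blue and MO red, and red bars are MO means. The 2 groups overlap in all 15 pairs.

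By the root mean square difference of log2 profiles over the 11 males, each centred on its own mean, the rows nearest to Fbp1 were Ndufv3, a subunit of respiratory complex I (0.1), and Nudt16l1 (0.102). Those nearest to Gys1 were Rpusd3 (0.123) and the transporter Slc22a18 (0.125). For Pck2 they were Pold3, a subunit of DNA polymerase delta (0.144), and the cation channel Trpm4 (0.146). Pygl was nearest to the synaptotagmin Syt2 (0.163) and the cell death factor Bmf (0.168), and Gckr to the cytochrome P450 Cyp2a2 (0.194), a member of a family with near-identical copies between which reads may be split, and Commd7 (0.21). Syt2 averaged only 1.06 RPM in control and 0.177 RPM in MO males, about 3 to 17 and 0 to 6 reads per library, so its distance from Pygl depends on the added 1 RPM. Ppp1r3c had no close neighbour: the nearest rows, Tprn and the phosphatase-like receptor Ptprn, were 0.524 and 0.525 away. The median row was 0.291 to 0.388 away from the other 5 genes and 0.775 from Ppp1r3c. None of these nearest rows was 1 of the 6 genes, of which the closest to each other were Fbp1 and Gys1 (0.164).

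Other genes of glucose metabolism were taken from 10 lists of pathway enzymes and regulators, which hold 129 genes besides the 6. The male table has a row for 12 of these, 11 lower and 1 higher in MO males, and 12 of 12 passed the limma threshold, as did 100% of all rows. No list gene of glycolysis, of glycogen breakdown or phosphatase targeting, or of glucose uptake and phosphorylation had a row other than the 6; these were not analysed here. The lower genes ranged from -1.32 to -0.48 on the log2 scale, with a median of -0.54, and in 3 of the 12 genes (Prkaca, Got2 and Galt) all MO males were below all controls, against 29.9% of all rows.

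The largest change was that of Gk, the glycerol kinase that brings glycerol into gluconeogenesis. Its lowest, median and highest control values were 154, 354 and 451 RPM. MO males 1 to 5 had 87.7, 78.6, 212, 202 and 119 RPM. MO males 3 and 4 lay inside the control range. Gk changed by -1.32 on the log2 scale with an SE of 0.28 (adjusted p = 0.0016, limma), and by -0.74 after centring (adjusted p = 0.19, limma).

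Galt encodes the uridylyltransferase that feeds galactose towards glucose 1-phosphate. Its lowest, median and highest control values were 38.3, 57.7 and 73.8 RPM. MO males 1 to 5 had 24.1, 18.7, 25.6, 28.2 and 17.4 RPM. Every MO male was below every control. On the log2 scale Galt changed by -1.27, with an SE of 0.19 (adjusted p = 0.0001, limma). It still passed after centring, at -0.68 (limma adjusted p = 0.00374), as did 1.82% of the rows lower before centring and 0 of the 6 genes. Galm, the mutarotase that opens the galactose pathway, was at -0.59 ± 0.19 (SE).

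Gpt2, the mitochondrial alanine aminotransferase that supplies pyruvate from alanine, averaged 111 ± 47.1 RPM in control males (SD, n = 6) and 65.9 ± 18.2 RPM in MO males (SD, n = 5). It changed by -0.69 on the log2 scale with an SE of 0.23 (adjusted p = 0.011, limma). Of the others on the list of gluconeogenesis and substrate supply, Got2 of the aspartate shuttle was at -0.54 ± 0.17 (SE). Mdh2, the mitochondrial malate dehydrogenase, was at -0.49 ± 0.20 (SE) and the citrate carrier Slc25a1 at -0.51 ± 0.19 (SE). Of glycogen synthesis, Pgm1, the phosphoglucomutase between glucose 1-phosphate and glucose 6-phosphate, was at -0.48 ± 0.18 (SE). Nhlrc1, the ubiquitin ligase malin, known to act on the product of Ppp1r3c, was at -0.52 ± 0.20 (SE). It was scarce, with means of 3.64 RPM in control and 2.19 RPM in MO males. As for Gys1, the 1 RPM added before taking logs shrinks a change at this level. The call of Nhlrc1 was lost with the replicate number as a block, at -0.40, and against control males 2, 3, 4 and 6 alone, at -0.46 (limma adjusted p = 0.061 and 0.053). Prkaca, the catalytic subunit of the cAMP-dependent kinase that sets off glycogen breakdown, was at -0.63 ± 0.16 (SE). The call of Mdh2 was lost without MO male 2, MO male 5 or control male 6 (limma adjusted p = 0.057, 0.091 and 0.05). Of the regulators, the liver X receptor Nr1h3 was at -0.54 ± 0.20 (SE). Irs2, which relays the insulin signal, was higher, at 0.65 ± 0.23 (SE; limma adjusted p = 0.012), and at 1.23 after centring. Centring raises every higher row, and 48 of 48 of them passed after it, so the call of Irs2 on that scale adds nothing. Irs2 lost the call against control males 1 and 5 alone and without control males 2 and 4 (limma adjusted p = 0.096 and 0.094). Against control males 1 and 5 alone, with fewer animals, lower genes lost theirs too. These were Prkaca, Pgm1, Slc25a1, Nr1h3 and Mdh2 (limma adjusted p = 0.057, 0.12, 0.14, 0.12 and 0.12).

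**Figure D4:**
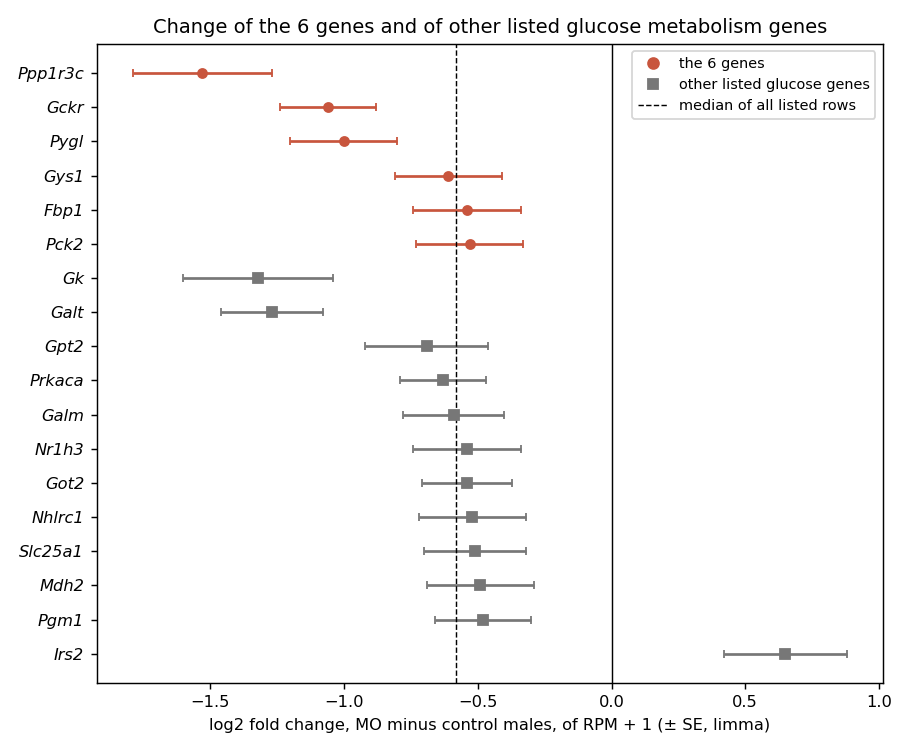
Log2 fold change of RPM + 1, MO minus control males (horizontal axis, ± SE from limma), of the 6 genes (red circles) and 12 other glucose metabolism genes with a row in the male table (grey squares); the dashed line is the median of all 1365 rows, -0.58. Ppp1r3c, Gckr, Pygl, Gk and Galt lie to the left of the line by more than 1 SE, Irs2 is the only one to the right of 0, and most others lie within 1 SE of the line.

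Of 87 markers of other cell types 7 had a row (Pdgfrb, Des, Reln, Vwf, Eng, Krt19 and Epcam), and 7 of 7 were lower, in a table where 96.5% of all rows were. Their summed level was 147 to 215 RPM in control and 87.6 to 118 RPM in MO males. Of 11 hepatocyte markers only Cps1 had a row, at 859 to 1900 RPM in control and 797 to 916 RPM in MO males. The part of cell composition in the results was not tested, and in whole tissue fewer cells of a type and less RNA per cell cannot be told apart.

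Among the females, 3 genes of the lists had a row, all higher in MO animals and given as values without a test. They were the glucagon receptor Gcgr and the glycolytic enzymes Aldoa and Eno1. The female rows too were selected for a difference before deposit. The shares of all female rows that were higher or did not overlap were not computed, so the counts below say nothing particular about these genes. Gcgr averaged 10.5 ± 4.33 RPM in control (SD, n = 6) and 23.4 ± 10.9 RPM in MO females (SD, n = 5), and 4 of 5 MO females were above every control. The level of Aldoa in control females was 7.85 ± 5.03 RPM (SD, n = 6), with 12.7 RPM as the highest, and that in MO females 1 to 5 was 13.8, 18.4, 30.2, 17.4 and 15.2 RPM, so the groups did not overlap. Eno1 was scarce, at 1.59 ± 0.866 RPM in control (SD, n = 6) and 4.19 ± 1.91 RPM in MO females (SD, n = 5), with 4 of 5 MO females above every control.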

How the data were processed

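Liver RNA was sequenced from 22 rats, 1 library per animal. STAR 2.3.1j, Partek and the build rn5 are named, without roles, per the submitters' processing notes. The sources used here give no annotation, counting rule or strand. Per the file headers each row is a RefSeq transcript. The values deposited by the authors are RPM with 1 added, inferred from the values: the lowest is 1, and in male libraries 81.4% to 86.6% of values under 9 RPM are whole multiples of 1 step within 0.02 of a read, too few to recover counts. The deposited fold change is a log2 size with its sign in another column, and the deposited p-values are unadjusted. Rows were selected for a difference before deposit.

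Males were fitted with limma 3.58.1 (trend, R 4.3.3) on log2(RPM + 1) over 1365 rows without a filter, with Benjamini-Hochberg adjustment over the table at 0.05. Because the rows were selected, these p-values are too small. Alternatives were another tool, pseudocount, filter or scaling, 1 row per gene, a replicate block and fewer animals. Exact permutation tests compared the genes with each other. Only the limma fit was tested on simulated data, which had changes in both directions and no selection of rows. Named genes were the 6 genes, all list genes with a row except a few not reported here (the 3 with the largest change are given in full), and the 2 nearest rows to each gene. The members and lists were chosen with earlier results of these data known. Pairing was not given by the labels.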

Additional observations from a re-analysis of the deposited data

Results flagged for a closer look

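In 36 groups of values (the 6 genes and 12 other glucose metabolism genes, in control and in MO males), 1 animal lay far from the rest of its group by Dixon's test, which flags about 1 in 20 groups by chance. Nhlrc1, which encodes the ubiquitin ligase malin, was at 3.35 RPM in MO male 3, and the other 4 MO males were at 1.71 to 2.18 RPM.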

How the results depend on the processing

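The 6 genes gave 138 values under other settings. Of these, 129 kept their direction and their side of the threshold of their test, 7 kept the direction but not the call, and 2 changed sign. The rows had been selected for a difference in these same animals, so the count of 129 says little about how firm the results are. The 2 that changed sign ended within 1 SE of 0. So did Gys1 after centring, which kept its sign at -0.02 ± 0.14 (SE). Centring the libraries on their medians left 0 of the 6 genes, 72 of all rows and 2 of the other glucose genes (Galt and Irs2) past the threshold, with Fbp1 at 0.05 and Pck2 at 0.06, and the split of all calls at 48 higher and 24 lower in place of 48 and 1317. This follows from the shift of -0.58 that centring removes. Control males 1 and 5 alone left 531 rows and 6 other glucose genes, with fewer animals. Leaving out 1 animal at a time gave 5 to 6 of the 6 genes, 1282 to 1364 rows, 11 to 12 other glucose genes and 0 to 2 pairs. A pseudocount of 5 gave 3 pairs (Gckr with Gys1, Gckr with Pck2 and Gys1 with Pygl); it shrinks the change of the low genes Gys1 and Pck2. With the replicate block, limma called 2 pairs, Ppp1r3c with Fbp1 and with Gys1 (adjusted p = 0.034 each), 6 of the 6 genes and 1344 rows; control male 6 has no partner and does not enter that estimate. Same-numbered animals share only a number: the correlation of their deviations over 1365 rows was -0.10 to 0.15. Gys1, at 23 to 79 reads per library, is limited by depth.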
